A study of Mus musculus with 6 samples.

Results

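Genes that mark hepatic stellate cells, fibroblasts and mural cells were read in liver sinusoidal endothelial cells (LSECs), the endothelium that lines the blood channels between the liver plates. The 31 genes were picked by gene symbol with a rule that uses no level, and all 31 were among the 24479 genes measured. They fall into 13 genes of quiescent stellate cells, 2 receptors for platelet-derived growth factor (PDGF), 6 contractile and mural cell genes and 10 matrix genes. The matrix genes encode fibrillar and other collagens, small matrix proteins and Timp1. The question was how much signal of these cells each LSEC preparation held, and whether it differed between mice without Lyve-1, a hyaluronan receptor of LSECs and lymphatic endothelium, and control mice.

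The group labelled Lyve-1-KO came from mice with a constitutive deletion of Lyve-1 (B6.129S1-Lyve1tm1Lhua/J), so the deletion is not limited to LSECs. The Ctrl group came from wild-type C57BL/6J mice. The study's methods list both littermates and bought mice as controls, and for bought controls genotype and origin cannot be told apart. The labels give neither the age nor the sex of the pooled mice. In both groups livers were perfused and digested with collagenase, cells were separated on a Nycodenz gradient and LSECs were taken with magnetic beads against CD146. Each sample pooled the cells of 3 mice and was run on 1 Affymetrix array, with 3 pools per group. The extraction label names retina as the tissue, whereas the 15 LSEC markers averaged log2 levels of 12.72, 12.69 and 12.70 in the Lyve-1-KO-labelled arrays, against 12.73, 12.73 and 12.74 in Ctrl.

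All levels are log2 values after quantile normalization, and the 6 arrays share 1 distribution (median 5.04, lowest value 2.92, highest 13.87). Over all genes, arrays of the same group correlated at 0.993 to 0.996 and arrays of different groups at 0.991 to 0.996. Lyve1 itself had levels of 12.85, 12.88 and 12.83 in the Lyve-1-KO-labelled arrays, against 12.78, 12.69 and 12.84 in Ctrl, with a log2 fold change of 0.085 (SE 0.064, adjusted p = 0.663, limma). Lyve1 signal was therefore not lower in the Lyve-1-KO-labelled arrays, and whether the probes of this gene lie in the deleted part of it is not given in the sources used here. The study reported the loss of Lyve-1 protein in liver tissue of the knockout mice by western blot and immunofluorescence. Those are not readings of these pools, so every direction below rests on the labels. Over all genes, limma with Benjamini-Hochberg adjustment called 1 of 24479 genes at 0.05, which is 0.00409%.

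Hepatic stellate cells lie between the LSECs and the hepatocytes, store vitamin A as retinyl esters and keep the sinusoidal space supplied with basement membrane and signaling proteins. On injury they lose their retinoid droplets, respond to PDGF and transforming growth factor beta (TGF-β), and turn into contractile cells that lay down fibrillar collagen. Portal fibroblasts, vascular smooth muscle cells and pericytes share parts of this matrix and contractile program.

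The arrays give no detection call. The 95th percentile of 1083 olfactory receptor genes, which are used by olfactory neurons, served as a stand-in for background and lay at 4.41 to 4.53 in the Lyve-1-KO-labelled arrays and at 4.37 to 4.48 in Ctrl. Of the 31 genes, 28, 29 and 28 exceeded it in the Lyve-1-KO-labelled arrays, against 27, 27 and 28 in Ctrl. A total of 27 genes exceeded it in all 6 arrays, among them the stellate cell genes Lrat, Reln, Colec10 and Cygb. Gfap, which encodes a glial filament protein that stellate cells also make, exceeded it in 2 arrays. Notch3, a Notch receptor of mural cells, exceeded it narrowly in the 3 Lyve-1-KO-labelled arrays and in 0 of 3 Ctrl arrays. Cnn1, which encodes the smooth muscle protein calponin, and Timp1, which encodes an inhibitor of matrix metalloproteinases, exceeded it in none. RNA of stellate cell marker genes was thus measured in every pool of both groups, whereas the signal of Gfap, Notch3, Cnn1 and Timp1 was not separated from background. Which cells carried these transcripts was not measured, and in pooled cells more cells of a type and more RNA per cell cannot be told apart.

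**Figure D1:**
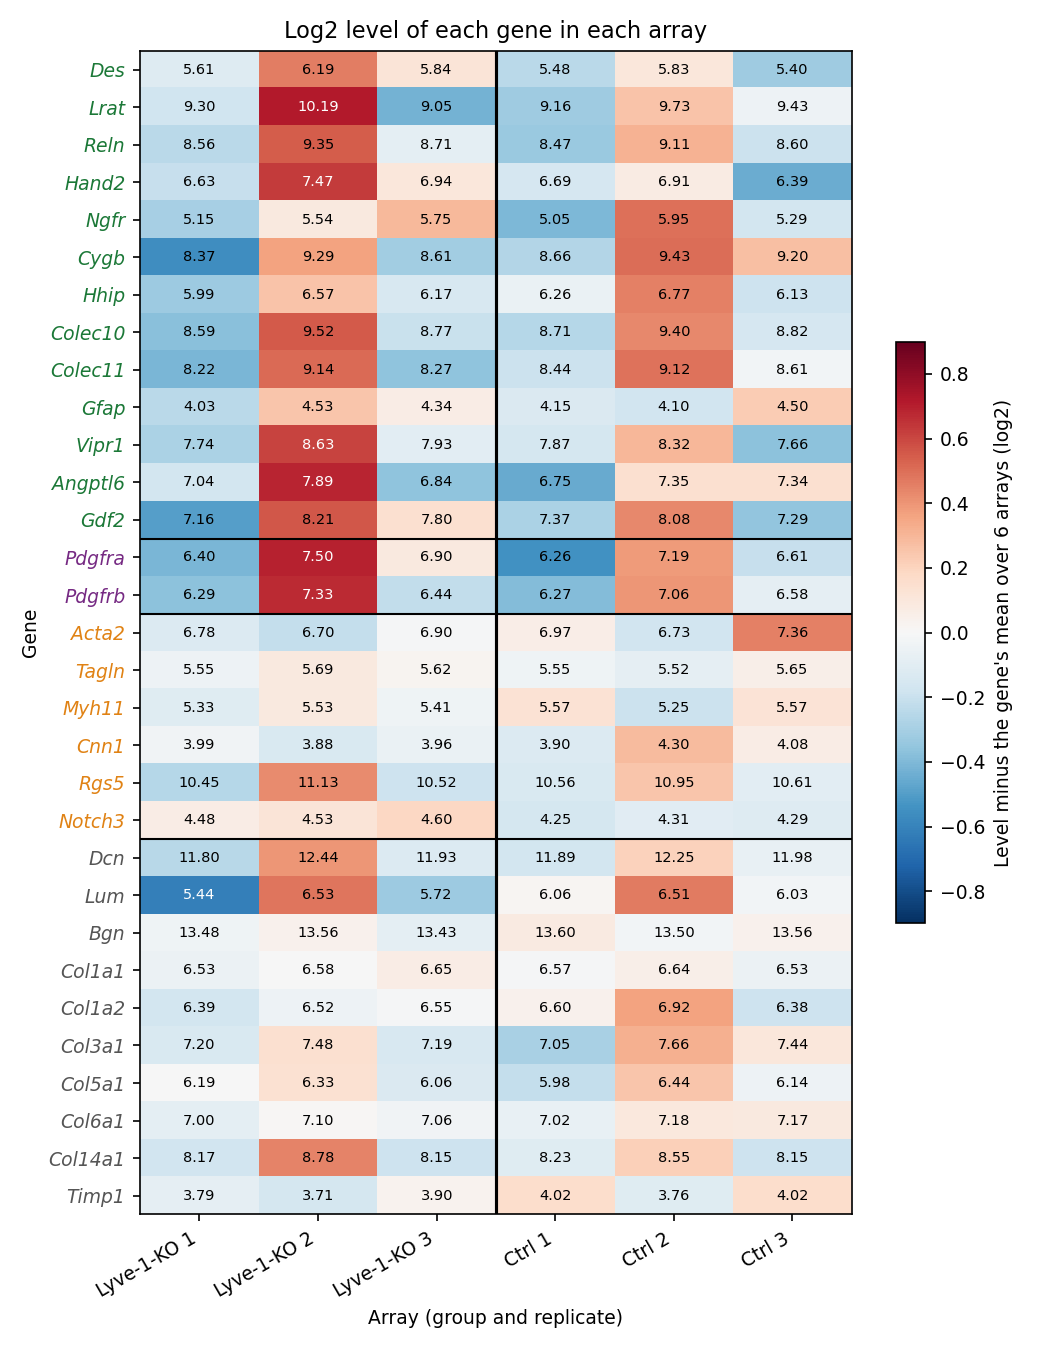
Log2 level of the 31 genes (rows, coloured by gene group) in each of the 6 arrays (columns, group and replicate number). Colour gives the level minus the mean of that gene over 6 arrays, and the columns of replicate 2 are the reddest for 20 genes in both groups.

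The arrays of replicate 2 stood apart for these genes in both groups, which was noticed in the data and is given here as a description. Replicate 2 was the highest of the 3 arrays in both groups for 20 of the 31 genes, a pattern held by 10.4% of all genes. Replicate 1 was the highest in both groups for 0 of the 31 and replicate 3 for 1, Acta2. Replicate 2 exceeded the mean of the other 2 arrays of its group by a median of 0.49 over the 31 genes in the Lyve-1-KO group and 0.38 in Ctrl, whereas the medians over all genes were -0.0088 and -0.011. These medians were 0.72 and 0.45 among the 20 genes, where the choice of genes fixes the sign, and 0.046 and -0.083 among the other 11.

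The pattern was unequal among the gene groups. It was held by 11 of 13 quiescent stellate genes, by both PDGF receptors, by 6 of 10 matrix genes and by 1 of 6 contractile and mural genes, Rgs5. Mean levels of the quiescent stellate genes were 7.11, 7.89 and 7.31 in the Lyve-1-KO-labelled arrays, against 7.16, 7.70 and 7.28 in Ctrl. Replicate 2 was thus the highest array of each group. The contractile and mural genes averaged 6.10, 6.24 and 6.17 in the Lyve-1-KO-labelled arrays, against 6.13, 6.18 and 6.26 in Ctrl. These means lay close together, but single genes behind them went in opposite directions. Ctrl replicate 2 minus the mean of the other Ctrl arrays was 0.36 for Rgs5 and -0.43 for Acta2. Hepatocyte markers had the same high arrays: replicate 2 was highest in both groups for 12 of 14 measured markers, and their mean levels were 7.49, 8.58 and 7.50 in the Lyve-1-KO-labelled arrays, against 7.40, 8.57 and 7.82 in Ctrl. All 14 exceeded background in all 6 arrays, with Alb, which encodes albumin, at 11.70, 12.22 and 11.68 in the Lyve-1-KO-labelled arrays, against 11.56, 11.97 and 12.02 in Ctrl. Within Ctrl, Alb was highest in replicate 3, and it was 1 of the 2 markers without the pattern. LSEC markers held the pattern in 0 of 15. Their mean levels of 12.69 to 12.74 lay near the array maximum of 13.87. Their median within-group SD was 0.048, beside 0.11 over all genes, and the part of the high level in this was not tested. The part of hepatocyte RNA in the levels of the 31 genes was not tested.

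**Figure D2:**
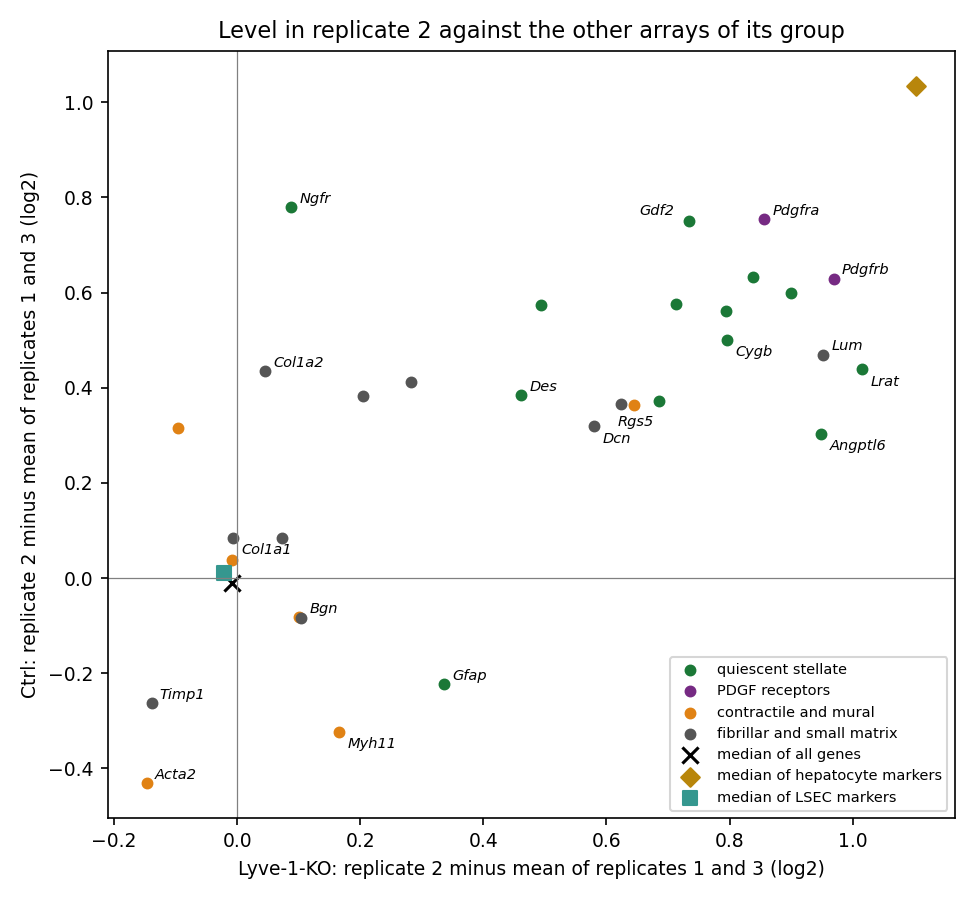
Log2 level in replicate 2 minus the mean of replicates 1 and 3, in the Lyve-1-KO group (x axis) and in Ctrl (y axis), with 1 dot per gene and the medians of all genes, hepatocyte markers and LSEC markers as symbols. Quiescent stellate genes and PDGF receptors sit mostly to the upper right, whereas Acta2, Timp1 and Col1a1 lie near or below 0.

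Between the groups, 0 of the 31 genes passed the adjusted threshold, with adjusted p from 0.265 to 0.992. At an unadjusted p under 0.05 limma found 1 of the 31, Notch3, beside 11.2% of all genes. The fold changes lay above 0 for 17 genes and below 0 for 14, with a median of 0.0059 over the 31 and of -0.0037 over all genes. The groups overlapped for 30 of the 31, whereas 17.4% of all genes had groups without overlap, 8.71% with the higher levels in the Lyve-1-KO-labelled arrays and 8.73% with the lower. The median within-group SD was 0.30 over the 31 genes, beside 0.11 over all genes. The 95% intervals stayed within a 2-fold change in either direction for 29 genes and reached beyond it for Cygb and Pdgfra. The intervals ran 0.15 to 0.77 to either side of the fold change on the log2 scale. Without replicate 2 of both groups, an alternative chosen after seeing the data, the median was -0.064 and again 0 of the 31 passed.

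**Figure D3:**
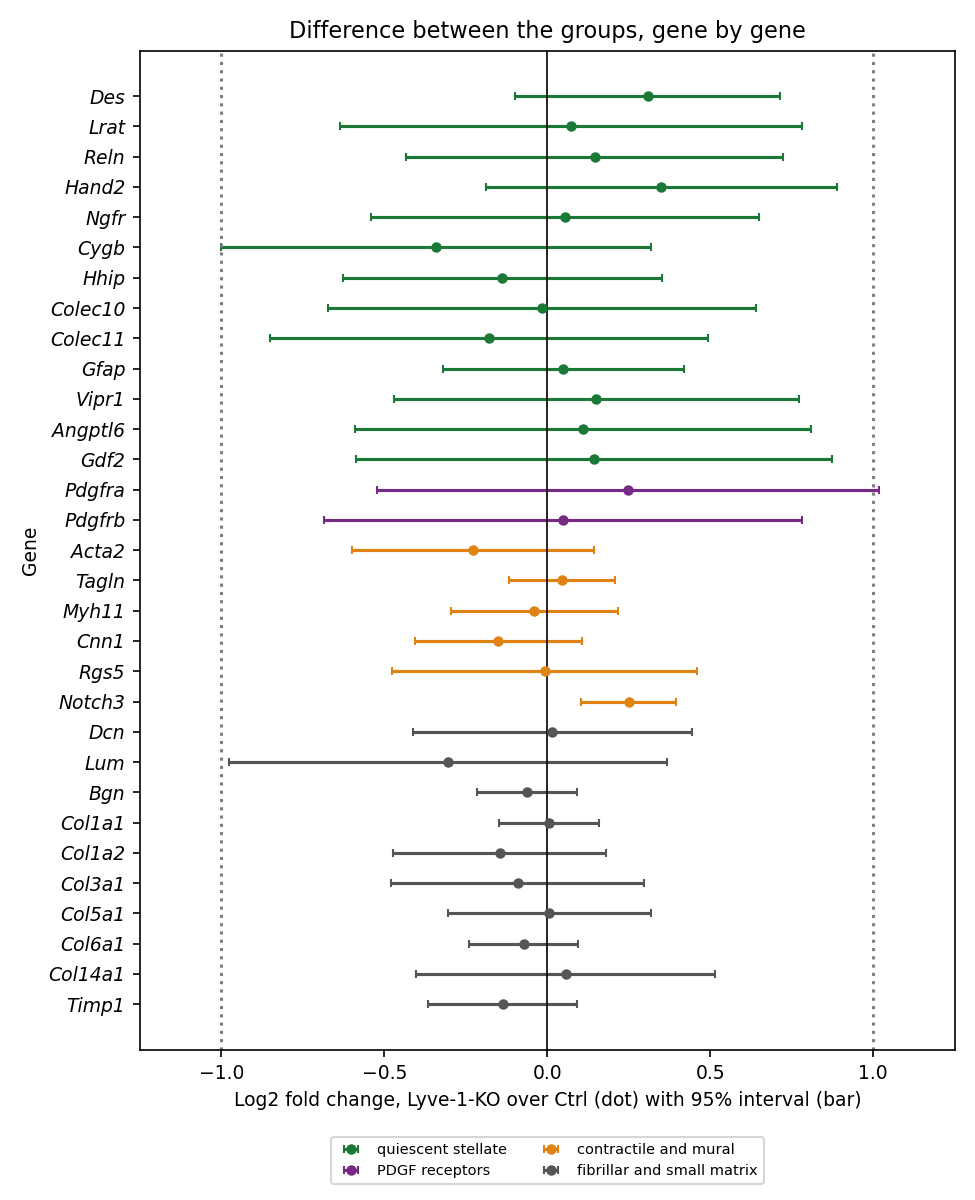
Log2 fold change of Lyve-1-KO over Ctrl for each of the 31 genes (dots) with its 95% interval from limma (bars), coloured by gene group. Dotted lines mark a 2-fold change, and the interval of Notch3 alone leaves 0 out.

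Quiescent stellate genes had fold changes above 0 for 9 of 13 and a median of 0.073. With 1 array dropped this median lay between -0.11 (Lyve-1-KO replicate 2 left out) and 0.22 (Ctrl replicate 2 left out), so its direction turned with 1 array. Lrat, the acyltransferase that esterifies retinol for storage, had levels of 9.30, 10.19 and 9.05 in the Lyve-1-KO-labelled arrays, against 9.16, 9.73 and 9.43 in Ctrl. Its highest array was replicate 2 in both groups, by 1.02 in the Lyve-1-KO group and 0.44 in Ctrl over the mean of the other arrays, and the groups overlapped, with a log2 fold change of 0.073 (SE 0.30, adjusted p = 0.952, limma). Reln, which encodes the secreted protein reelin, had levels of 8.56, 9.35 and 8.71 in the Lyve-1-KO-labelled arrays, against 8.47, 9.11 and 8.60 in Ctrl. The same arrays were highest, and its fold change was 0.15 (SE 0.24).

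Cygb, which encodes the oxygen-binding globin of stellate cells, had the lowest fold change of the 31. Its levels were 8.37, 9.29 and 8.61 in the Lyve-1-KO-labelled arrays, against 8.66, 9.43 and 9.20 in Ctrl. Replicate 1 of the Lyve-1-KO group was the lowest of the 6 arrays and its replicate 2 array exceeded 2 of the 3 Ctrl arrays, so that the groups overlapped, with a fold change of -0.34 (SE 0.28, 95% interval -1.002 to 0.32, adjusted p = 0.688, limma). Hand2, a transcription factor of the stellate lineage, had the highest fold change, with levels of 6.63, 7.47 and 6.94 in the Lyve-1-KO-labelled arrays, against 6.69, 6.91 and 6.39 in Ctrl. The groups overlapped again, at a fold change of 0.35 (SE 0.23, 95% interval -0.19 to 0.89, adjusted p = 0.605, limma), and with 1 array dropped it lay between 0.12 (Lyve-1-KO replicate 2 left out) and 0.54 (Lyve-1-KO replicate 1 left out). Des, which encodes the intermediate filament desmin, had 5.61, 6.19 and 5.84 in the Lyve-1-KO-labelled arrays, against 5.48, 5.83 and 5.40 in Ctrl, and the lowest array labelled Lyve-1-KO lay between the Ctrl arrays (fold change 0.31, SE 0.17, adjusted p = 0.546, limma).

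Colec10 and Colec11 encode collectins, soluble lectins that start the lectin pathway of complement. Colec10 had levels of 8.59, 9.52 and 8.77 in the Lyve-1-KO-labelled arrays, against 8.71, 9.40 and 8.82 in Ctrl, and Colec11 had 8.22, 9.14 and 8.27 in the Lyve-1-KO-labelled arrays, against 8.44, 9.12 and 8.61 in Ctrl. Replicate 2 stood above the other arrays in both groups for both genes, and the fold changes were -0.016 (SE 0.28) for Colec10 and -0.18 (SE 0.28) for Colec11. Gdf2 encodes BMP9, a ligand that acts on the LSEC receptor ALK1. Its levels were 7.16, 8.21 and 7.80 in the Lyve-1-KO-labelled arrays, against 7.37, 8.08 and 7.29 in Ctrl, with the 2 replicate 2 arrays highest and a fold change of 0.14 (SE 0.31).

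Vipr1, a receptor for vasoactive intestinal peptide, had levels of 7.74, 8.63 and 7.93 in the Lyve-1-KO-labelled arrays, against 7.87, 8.32 and 7.66 in Ctrl (fold change 0.15, SE 0.26). Angptl6, a secreted angiopoietin-like protein, had 7.04, 7.89 and 6.84 in the Lyve-1-KO-labelled arrays, against 6.75, 7.35 and 7.34 in Ctrl (fold change 0.11, SE 0.29). Hhip, which binds hedgehog ligands, had 5.99, 6.57 and 6.17 in the Lyve-1-KO-labelled arrays, against 6.26, 6.77 and 6.13 in Ctrl (fold change -0.14, SE 0.21). Replicate 2 was highest in both groups for each of these 3 genes, although Ctrl replicate 3 was at almost the same level for Angptl6. Ngfr, the low-affinity neurotrophin receptor, had levels of 5.15, 5.54 and 5.75 in the Lyve-1-KO-labelled arrays, against 5.05, 5.95 and 5.29 in Ctrl, so its highest array was replicate 3 in the Lyve-1-KO group and replicate 2 in Ctrl. Gfap, near background, had 4.03, 4.53 and 4.34 in the Lyve-1-KO-labelled arrays, against 4.15, 4.10 and 4.50 in Ctrl. Neither gene had a fold change over 0.054 in size.

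The PDGF receptors drive proliferation and migration of stellate cells and fibroblasts. Pdgfra had levels of 6.40, 7.50 and 6.90 in the Lyve-1-KO-labelled arrays, against 6.26, 7.19 and 6.61 in Ctrl. Pdgfrb had levels of 6.29, 7.33 and 6.44 in the Lyve-1-KO-labelled arrays, against 6.27, 7.06 and 6.58 in Ctrl. For both, replicate 2 was the highest array of each group and replicate 1 the lowest, with excesses of replicate 2 of 0.86 in the Lyve-1-KO group and 0.76 in Ctrl for Pdgfra and of 0.97 in the Lyve-1-KO group and 0.63 in Ctrl for Pdgfrb. The groups overlapped, with fold changes of 0.25 (SE 0.32, 95% interval -0.52 to 1.02, adjusted p = 0.818, limma) for Pdgfra and 0.049 (SE 0.31, adjusted p = 0.968, limma) for Pdgfrb.

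Contractile and mural genes had a median within-group SD of 0.15, beside 0.41 for the quiescent stellate genes. Of them, Tagln, Myh11, Cnn1 and Notch3 exceeded the 99th percentile of the olfactory receptor genes in 0 arrays, and Acta2 and Rgs5 in all 6. Quiescent stellate genes other than Des, Ngfr and Gfap exceeded it in all 6. The part of low signal in this difference and in the pattern of replicate 2 was not tested. Acta2, which encodes smooth muscle actin and marks activated stellate cells and smooth muscle, had levels of 6.78, 6.70 and 6.90 in the Lyve-1-KO-labelled arrays, against 6.97, 6.73 and 7.36 in Ctrl. Replicate 3 of Ctrl was the highest array and replicate 2 the lowest of each group, and the groups overlapped (fold change -0.23, SE 0.16, 95% interval -0.60 to 0.14, adjusted p = 0.624, limma). Tagln, an actin-binding protein of smooth muscle, had 5.55, 5.69 and 5.62 in the Lyve-1-KO-labelled arrays, against 5.55, 5.52 and 5.65 in Ctrl (fold change 0.046, SE 0.068). Myh11, the smooth muscle myosin heavy chain, had 5.33, 5.53 and 5.41 in the Lyve-1-KO-labelled arrays, against 5.57, 5.25 and 5.57 in Ctrl (fold change -0.040, SE 0.11). The arrays of both genes lay close together, and no replicate was highest in both groups for Tagln. Rgs5, a regulator of G-protein signaling in pericytes, had levels of 10.45, 11.13 and 10.52 in the Lyve-1-KO-labelled arrays, against 10.56, 10.95 and 10.61 in Ctrl, with replicate 2 highest in both groups and a fold change of -0.0085 (SE 0.20). Notch3 had levels of 4.48, 4.53 and 4.60 in the Lyve-1-KO-labelled arrays, against 4.25, 4.31 and 4.29 in Ctrl. Its 3 Ctrl arrays lay below its 3 arrays labelled Lyve-1-KO without overlap, at a fold change of 0.25 (SE 0.061, 95% interval 0.10 to 0.40, unadjusted p = 0.00496, adjusted p = 0.265, limma). The exact two-sided permutation test over 3 against 3 arrays gave p = 0.1, the smallest it can give. Since no Ctrl array exceeded background for Notch3, this fold change and these p compare levels at the edge of background with levels not above it. Cnn1, below background in every array, had a fold change of -0.15 (SE 0.11).

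Promoter windows of 300 bases, from 250 before to 50 after the gene start, are shown for Colec11 and Pdgfra, whose levels were highest in replicate 2 of both groups, and for Acta2, whose level was lowest there. The windows are from RefSeq (GRCm38.p6), and 22 of the 31 genes were found by symbol in the set of windows searched. Capitals mark CAGAC, the core of the SMAD binding element, on the printed strand or GTCTG where it lies on the other strand.
Colec11: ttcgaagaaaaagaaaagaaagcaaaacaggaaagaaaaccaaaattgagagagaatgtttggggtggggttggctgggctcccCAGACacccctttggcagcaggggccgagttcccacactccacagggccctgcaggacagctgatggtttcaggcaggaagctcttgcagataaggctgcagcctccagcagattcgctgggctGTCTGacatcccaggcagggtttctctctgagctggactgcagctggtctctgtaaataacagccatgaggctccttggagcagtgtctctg
Pdgfra: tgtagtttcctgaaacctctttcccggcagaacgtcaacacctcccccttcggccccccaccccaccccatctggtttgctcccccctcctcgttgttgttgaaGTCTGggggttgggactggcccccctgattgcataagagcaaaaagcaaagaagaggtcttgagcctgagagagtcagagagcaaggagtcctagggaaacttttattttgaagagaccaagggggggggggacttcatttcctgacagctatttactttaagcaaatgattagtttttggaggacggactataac
Acta2: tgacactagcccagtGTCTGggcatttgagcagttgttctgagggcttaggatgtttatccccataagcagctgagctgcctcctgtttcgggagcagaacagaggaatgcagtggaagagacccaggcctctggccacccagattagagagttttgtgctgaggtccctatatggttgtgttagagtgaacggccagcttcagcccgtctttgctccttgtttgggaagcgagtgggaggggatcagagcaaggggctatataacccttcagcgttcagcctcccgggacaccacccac
Colec11 lies at chr12:28623281-28623580 on the minus strand with 2 matches, Pdgfra at chr5:75152001-75152300 on the plus strand with 1 match, and Acta2 at chr19:34255324-34255623 on the minus strand with 1 match. On both strands CAGAC was found for 11 of 22 genes, or 50%, beside 49.6% of all 32851 windows. A gene was counted if any of its windows held the motif, whereas the share beside it counts windows, so the units differ. TATAAA was found for 2 of 22 genes, or 9.09%, beside 13.6% of windows. The CArG box of contractile genes was searched only as an exact CCWWWWWWGG, where W is A or T. It was found for 0 of 22 genes, beside 1.63% of windows. Near matches were not counted, among them ccctatatgg and ccttgtttgg in the Acta2 window, each 1 base off that pattern. These matches are a description of the windows and carry no statement on the factors.

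Matrix genes ranged from little spread between arrays, as for Col1a1 and Bgn, to wide spread, as for Lum. Dcn, Lum and Bgn encode the small leucine-rich proteoglycans decorin, lumican and biglycan. Dcn had levels of 11.80, 12.44 and 11.93 in the Lyve-1-KO-labelled arrays, against 11.89, 12.25 and 11.98 in Ctrl, and Bgn had 13.48, 13.56 and 13.43 in the Lyve-1-KO-labelled arrays, against 13.60, 13.50 and 13.56 in Ctrl. Bgn lay close to the array maximum of 13.87 and its arrays differed little, whereas replicate 2 of both groups was highest for Dcn. Lum had levels of 5.44, 6.53 and 5.72 in the Lyve-1-KO-labelled arrays, against 6.06, 6.51 and 6.03 in Ctrl. Replicate 1 of the Lyve-1-KO group was its lowest array, and the groups overlapped at a fold change of -0.30 (SE 0.28, 95% interval -0.98 to 0.37, adjusted p = 0.729, limma), with -0.46 when replicate 2 of both groups was left out.

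Fibrillar collagens, here Col1a1, Col1a2, Col3a1 and Col5a1, form the fibers of connective tissue and scars. Col1a1, a chain of collagen I, had levels of 6.53, 6.58 and 6.65 in the Lyve-1-KO-labelled arrays, against 6.57, 6.64 and 6.53 in Ctrl, a fold change of 0.0052 (SE 0.064) and little spread between the arrays. Col1a2, the other chain of collagen I, had 6.39, 6.52 and 6.55 in the Lyve-1-KO-labelled arrays, against 6.60, 6.92 and 6.38 in Ctrl (fold change -0.15, SE 0.14). Col3a1, the chain of collagen III, had 7.20, 7.48 and 7.19 in the Lyve-1-KO-labelled arrays, against 7.05, 7.66 and 7.44 in Ctrl (fold change -0.091, SE 0.16). For both the groups overlapped, with Ctrl replicate 2 the highest of the 6 arrays. Col5a1, a chain of collagen V, had 6.19, 6.33 and 6.06 in the Lyve-1-KO-labelled arrays, against 5.98, 6.44 and 6.14 in Ctrl (fold change 0.0059, SE 0.13). Col6a1, a chain of collagen VI, had 7.00, 7.10 and 7.06 in the Lyve-1-KO-labelled arrays, against 7.02, 7.18 and 7.17 in Ctrl (fold change -0.073, SE 0.071). Replicate 2 was highest in both groups for each, by little for Col6a1. Col14a1, a fibril-associated collagen of fibroblasts and stellate cells, had 8.17, 8.78 and 8.15 in the Lyve-1-KO-labelled arrays, against 8.23, 8.55 and 8.15 in Ctrl, with replicate 2 highest in both groups. Timp1, below background, had a fold change of -0.14 (SE 0.10). No collagen gene of the 31 passed the test. The median fold change was -0.068 over the 10 matrix genes and -0.024 over the 6 contractile and mural genes.

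With the replicate number of the labels as a block in limma, 4 of 31 had an unadjusted p under 0.05, beside 11.3% of all genes, and 0 passed after adjustment. These were Notch3, Des, Pdgfra and Cygb, with adjusted p of 0.337, 0.347, 0.365 and 0.371 (limma). Pdgfra was higher in the pool labelled Lyve-1-KO than in the Ctrl pool of the same number in all 3 pairs, by 0.13, 0.31 and 0.29. Cygb was lower in all 3 pairs, with differences of -0.29, -0.14 and -0.59. Of the 31 genes 4 were higher in all 3 pairs and 4 were lower in all 3, beside 17.4% and 17.3% of all genes.

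Further genes of the same cells and programs were read from lists that hold no member. Other stellate genes had 0 higher and 1 lower of 24 measured genes at an unadjusted p under 0.05, beside 5.87% and 5.33% of all genes (Wt1, a transcription factor of the stellate and mesothelial lineage, at a fold change of -0.19), with 12 above 0 and 12 below, and the pattern of replicate 2 in 10. Portal fibroblast and mesothelial genes had 2 higher and 2 lower of 22, and other smooth muscle and pericyte genes had 0 of 19. Among the portal genes counted, Ccl11 (higher) and Mfap4 (lower) exceeded background in 0 arrays and Dpt (lower) in 3 arrays. Genes of TGF-β and PDGF signaling had 0 higher and 2 lower of 19, and retinoid genes had 1 higher and 2 lower of 17. Aldh1a2, a lower retinoid gene, exceeded background in 1 array. After adjustment 0 genes of these lists passed. The median fold change was -0.020 for other stellate genes, -0.049 for portal fibroblast and mesothelial genes and -0.061 for smooth muscle and pericyte genes. It was -0.020 for TGF-β and PDGF signaling and -0.053 for retinoid genes.

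Other matrix and matrix turnover genes had 1 higher and 6 lower of 23 at an unadjusted p under 0.05, beside 5.87% and 5.33% of all genes. Their median was -0.17, with 3 above 0 and 20 below, beside 11961 above and 12518 below over all genes. None passed after adjustment. Col8a1, a short-chain collagen, had levels of 5.20, 5.28 and 5.26 in the Lyve-1-KO-labelled arrays, against 6.37, 5.90 and 5.90 in Ctrl. The groups did not overlap, at a fold change of -0.81 (SE 0.13, adjusted p = 0.168, limma), and without Ctrl replicate 1, the highest array, it was -0.65. Pcolce, an enhancer of procollagen processing, had levels of 9.39, 9.38 and 9.33 in the Lyve-1-KO-labelled arrays, against 9.69, 9.79 and 9.72 in Ctrl, also without overlap (fold change -0.37, SE 0.060, adjusted p = 0.168, limma). Cthrc1, a secreted protein of activated fibroblasts, had 5.91, 5.80 and 5.81 in the Lyve-1-KO-labelled arrays, against 5.69, 5.39 and 5.43 in Ctrl, higher in each array labelled Lyve-1-KO than in any Ctrl array, at a fold change of 0.34 (SE 0.093, adjusted p = 0.294, limma).

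Tgfb2, a ligand of the TGF-β family, had levels of 6.02, 5.72 and 5.58 in the Lyve-1-KO-labelled arrays, against 7.08, 5.95 and 6.37 in Ctrl. Ctrl replicate 1 was by far its highest array and the groups overlapped, with a fold change of -0.69 (SE 0.27, adjusted p = 0.427, limma) and -0.39 without that array. Col6a3, a chain of collagen VI, had 6.15, 6.29 and 6.23 in the Lyve-1-KO-labelled arrays, against 7.30, 6.48 and 6.73 in Ctrl, without overlap of the groups. Its fold change of -0.61 (adjusted p = 0.352, limma) became -0.38 without Ctrl replicate 1. Vwf, which encodes von Willebrand factor of larger vessels, was also highest in that array, at 9.08, 8.77 and 9.04 in the Lyve-1-KO-labelled arrays, against 10.88, 9.17 and 9.74 in Ctrl. The part of larger-vessel cells in these values was not tested. Cyp26b1, which breaks down retinoic acid, had 10.01, 9.12 and 8.90 in the Lyve-1-KO-labelled arrays, against 9.98, 9.84 and 10.33 in Ctrl (fold change -0.71, SE 0.29, adjusted p = 0.434, limma).

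**Figure D4:**
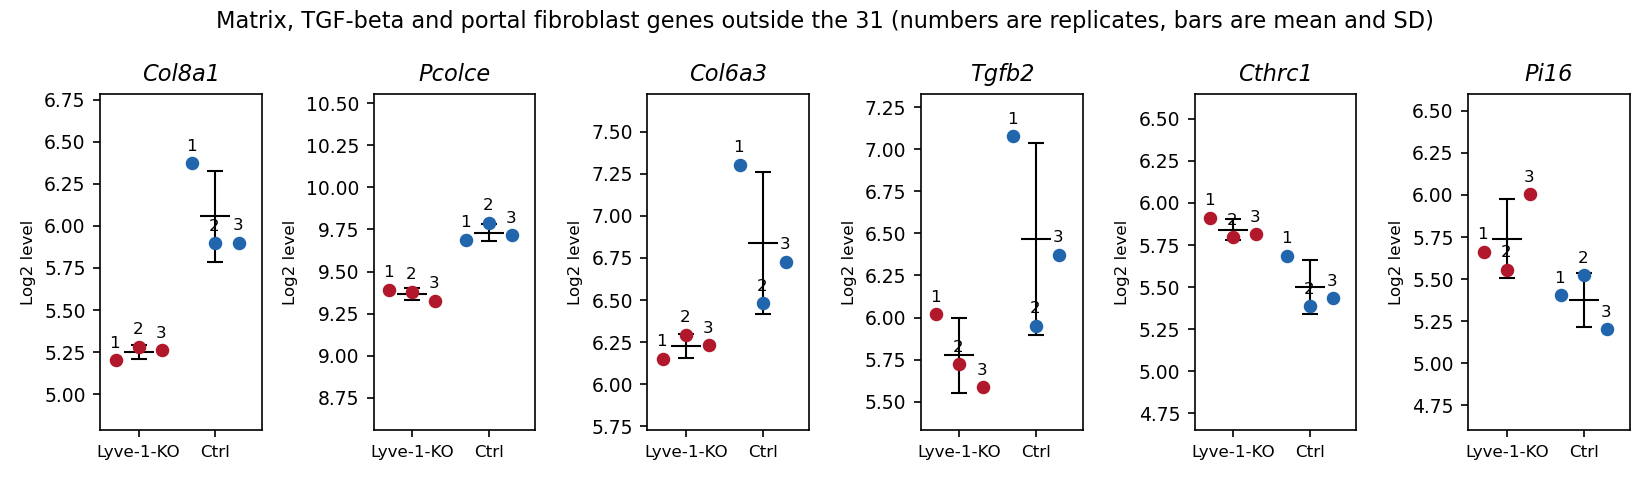
Log2 level of 6 genes outside the 31 in each array (dots, numbered by replicate), with the mean and SD of each group (bars), each panel with its own y axis. Col8a1, Pcolce and Col6a3 lie lower in all 3 arrays labelled Lyve-1-KO than in any Ctrl array. Replicate 1 is the highest Ctrl array for Col8a1, Col6a3, Tgfb2 and Cthrc1.

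Markers of other cells varied between the arrays as well. Macrophage markers averaged 8.77, 9.53 and 9.83 in the Lyve-1-KO-labelled arrays, against 7.61, 9.74 and 9.04 in Ctrl, and all 11 exceeded background in all 6 arrays. Neutrophil markers averaged 6.03, 5.35 and 7.04 in the Lyve-1-KO-labelled arrays, against 5.17, 5.35 and 5.71 in Ctrl, with 5 of 8 above background in all arrays. Neither list was highest in replicate 2 of both groups for any marker, in contrast to the quiescent stellate genes. Within Ctrl alone, however, replicate 2 was highest for all 11 macrophage markers. Their median excess there was 1.41, against 0.56 for the quiescent stellate genes. In the Lyve-1-KO group replicate 2 was highest for 0 of the 11, with a median excess of 0.25. Medians of the fold changes were 0.44 for macrophage, 0.87 for neutrophil, -0.0078 for hepatocyte and -0.012 for LSEC markers. With 1 array dropped, the macrophage median lay between -0.14 (Ctrl replicate 1 left out) and 0.88 (Ctrl replicate 2 left out), so its direction turned with 1 array. The neutrophil median lay between 0.36 (Lyve-1-KO replicate 3 left out) and 1.37 (Lyve-1-KO replicate 2 left out), and the hepatocyte median between -0.43 (Lyve-1-KO replicate 2 left out) and 0.24 (Ctrl replicate 2 left out). After adjustment 0 genes of these lists passed, and at an unadjusted p under 0.05 there was 1 higher macrophage marker, Marco, a scavenger receptor, 1 lower hepatocyte marker, Hnf4a, a transcription factor, and 1 lower LSEC marker, Cd209b, a lectin. Of 5 platelet markers 2 were lower, Pf4, a platelet chemokine (fold change -0.46, adjusted p = 0.168, limma), and Gp9, a platelet surface glycoprotein (fold change -0.37, adjusted p = 0.379, limma), and all 5 had fold changes below 0. Of 11 lymphocyte markers 2 were lower, Ms4a1 of B cells and Cd8a of T cells. Cd8a exceeded background in 0 of the 6 arrays, so its difference compares levels below background. Of 7 continuous endothelial markers 1 was lower, Vwf. The shares over all genes at this p were 5.87% higher and 5.33% lower. The median fold changes were -0.17 for cholangiocyte, -0.10 for lymphocyte, -0.37 for platelet, -0.075 for erythroid and -0.042 for continuous endothelial markers. The 10 immediate early genes, which respond to cell handling, had a median of 0.54, all 10 higher at an unadjusted p under 0.05, beside 5.87% of all genes, and 0 after adjustment. The part of these cells and of handling in the values of the 31 genes was not tested.

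**Figure D5:**
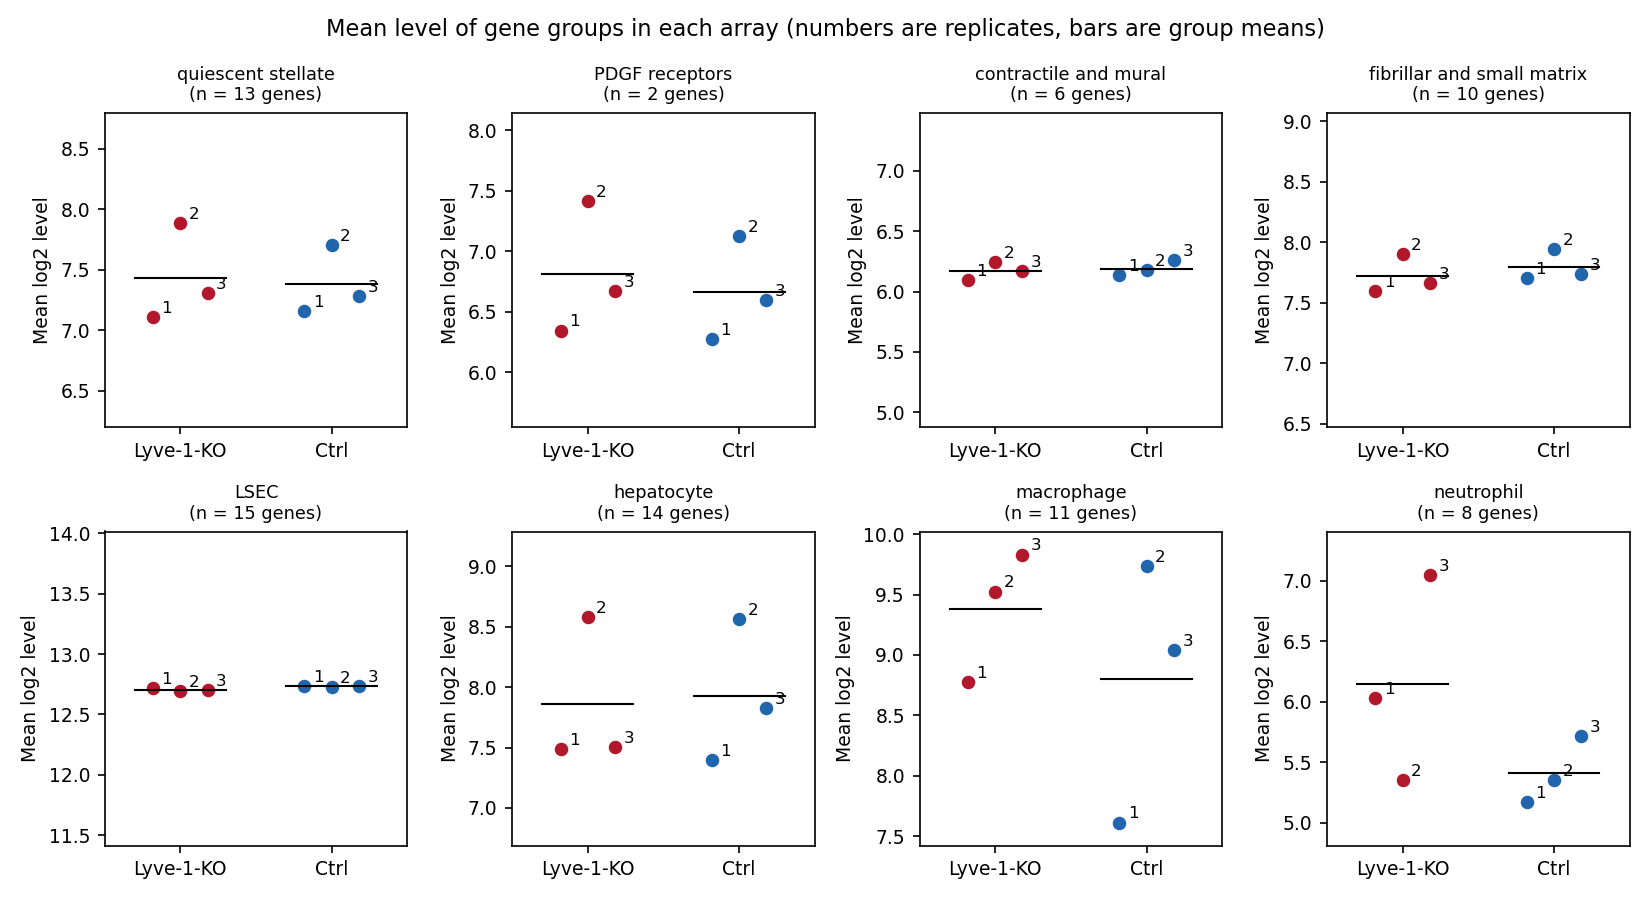
Mean log2 level of the 4 groups of the 31 genes (top) and of 4 cell type lists (bottom) in each array, with dots numbered by replicate and bars at the group means. Replicate 2 is the highest dot of both groups for quiescent stellate genes, PDGF receptors, matrix genes and hepatocyte markers, whereas the LSEC markers lie on 1 level.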

How the data were processed

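Total RNA of LSECs from 3 Lyve-1-KO and 3 Ctrl pools was hybridized to Affymetrix arrays. The authors grouped the probes by gene with a custom chip definition (version 18) and applied quantile normalization, and the deposited values are log2 levels. The submitters' processing notes name RMA (version not given in the sources used here). The groups were compared over 24479 genes with the two-sided moderated test of limma (3.58.1, under R 4.3.3), adjusted by Benjamini-Hochberg at 0.05, without a filter. Of the genes 23281 carry 1 symbol in the probe annotation and 1198 carry none. The fit was first run on simulated data with independent noise in each array. That run cannot show how the fit handles deviations shared by arrays of the same replicate number. The p-values measure only the spread between these pools.

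The members and lists were chosen with earlier results of these data known. All 31 genes are named, and in the other lists up to 4 genes with the smallest unadjusted p and, for cell type lists, up to 4 with the highest mean level were eligible, besides Lyve1 as the targeted gene and Mcam, the gene of CD146 (log2 fold change -0.022). Listed genes that did not match the annotation were left out. Whether replicate numbers pair the pools was checked on deviations from the group means. Over all genes these correlated at 0.206, 0.134 and 0.124 for the same number and at -0.218 to 0.0432 for different numbers. All 3 exceed 0.1, and the labels themselves do not state a pairing. Over the 31 genes alone the same numbers gave 0.508, 0.655 and 0.0633, and different numbers gave -0.706 to 0.494. Replicate 3 thus did not stand out as a pair for these genes. The alternatives were the replicate block, a second quantile normalization, median centring, a dim gene filter at the 40th percentile of mean level, trend and robust variance, array quality weights, leaving out arrays, the methods' test (a test per gene with equal variance) and the 99th percentile of the olfactory receptor genes as background. Motifs were searched on both strands of RefSeq promoter windows.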

Additional observations from a re-analysis of the deposited data

How the results depend on the processing

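None of the 31 genes passed the adjusted threshold under any alternative run, namely the replicate block, repeated quantile normalization, median centring, the filter on dim genes, trend and robust variance, array quality weights, the methods' test, each array left out and both replicate 2 arrays left out, the last chosen after seeing the data. Over all genes, 1 was called, against 0 with the replicate block, 49 with trend and robust variance, 0 with the methods' test, 0 without both replicate 2 arrays, and 0 to 2 with 1 array left out (2 without Ctrl replicate 1). The block lowered the median SE of the 31 genes to 0.092, against 0.19 without it. With the block 4 of the 31 had an unadjusted p under 0.05 in limma, against 1 without it. The methods' test had 1 of the 31 at an unadjusted p under 0.05, as had limma without the block. The median of the 31 fold changes was -0.11 to 0.12 with 1 array left out. With array quality weights the direction turned for Lrat (-0.021), Ngfr (-0.041), Pdgfrb (-0.077), Dcn (-0.055), Col1a1 (-0.0045), Col5a1 (-0.029) and Col14a1 (-0.0060). Without both replicate 2 arrays it turned for Lrat (-0.12), Gfap (-0.14), Angptl6 (-0.11), Pdgfrb (-0.064), Tagln (-0.015), Dcn (-0.071) and Col14a1 (-0.030). With 1 array left out it turned for 19 genes, whose fold changes ran from -0.27 to 0.30 (Lrat), -0.092 to 0.34 (Reln), -0.14 to 0.31 (Ngfr), -0.30 to 0.053 (Hhip), -0.29 to 0.20 (Colec10), -0.48 to 0.021 (Colec11), -0.063 to 0.18 (Gfap), -0.11 to 0.34 (Vipr1), -0.21 to 0.32 (Angptl6), -0.10 to 0.42 (Gdf2), -0.038 to 0.52 (Pdgfra), -0.27 to 0.26 (Pdgfrb), -0.15 to 0.015 (Myh11), -0.22 to 0.12 (Rgs5), -0.18 to 0.14 (Dcn), -0.025 to 0.034 (Col1a1), -0.26 to 0.046 (Col3a1), -0.10 to 0.13 (Col5a1) and -0.15 to 0.18 (Col14a1). For the other 12 genes, which kept their direction with 1 array left out, the fold changes ran from 0.15 to 0.44 (Des), 0.12 to 0.54 (Hand2), -0.61 to -0.15 (Cygb), -0.37 to -0.059 (Acta2), 0.012 to 0.082 (Tagln), -0.25 to -0.046 (Cnn1), 0.22 to 0.28 (Notch3), -0.62 to -0.073 (Lum), -0.10 to -0.033 (Bgn), -0.27 to -0.0013 (Col1a2), -0.12 to -0.044 (Col6a1) and -0.22 to -0.091 (Timp1). At its lowest and highest the median was -0.16 (Lyve-1-KO replicate 2 left out) and 0.38 (Lyve-1-KO replicate 1 left out) for the PDGF receptors, -0.11 (Lyve-1-KO replicate 2 left out) and 0.044 (Lyve-1-KO replicate 1 left out) for contractile and mural genes and -0.12 (Lyve-1-KO replicate 2 left out) and 0.016 (Ctrl replicate 2 left out) for matrix genes. None of these directions had passed the test, and the cause was not tested. The 99th percentile of the olfactory receptor genes left 22 of the 31 above background in all 6 arrays, against 27. With 3 arrays per group the intervals stay wide, and saturation and probe position cannot be read from the deposited values.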
